A study of Mus musculus with 8 samples.

Results

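S100 proteins are small proteins that bind calcium through EF-hand motifs, mostly act as dimers, and change the behavior of partner proteins such as annexins, myosin and the cytoskeleton. Some of them also leave the cell and signal through receptors such as the receptor for advanced glycation end products (Ager) and Toll-like receptor 4 (Tlr4). The calprotectin genes S100a8 and S100a9 are best known from neutrophils and monocytes, and S100a4 and S100a6 are abundant in many tumor and stromal cells. The genes described here are the 10 S100 genes S100a1, S100a4, S100a6, S100a8, S100a9, S100a10, S100a11, S100a13, S100a14 and S100a16, chosen by symbol with no measured value in the rule, out of 27179 genes in the table. All 10 lie on mouse chromosome 3.

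The data are bulk RNA sequencing of 8 tumors, 4 from cxC26 scr cells and 4 from cxC26 IL6KOs1 cells, and the comparison asks how tumors of cells without a working IL-6 gene differ from control tumors. cxC26 is a cachectic line of colon carcinoma 26, a mouse colon tumor, and cachexia is the wasting of body weight in tumor-bearing animals. The cxC26 scr cells carried Cas9 with a scrambled guide RNA, and cxC26 IL6KOs1 is 1 subclone in which CRISPR/Cas9 had disrupted Il6. Both were selected with puromycin, implanted under the skin of adult male CD2F1 mice and left until the mice had become cachectic, as the labels state. In the CD2F1 growth experiments that reached cachexia, the study injected more cells of this subclone than of the control, and its tumors grew later. The inoculum and day of collection of the sequenced tumors are not given in the sources used here. Differences between the groups may therefore also belong to the single subclone, the inoculum or the age of the tumor, and these cannot be told apart from the loss of IL-6. The labels give no host age for each tumor and no processing batch, and p-values measure the spread between these tumors.

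Each tumor had between 14158989 and 17048062 reads assigned to genes. The targeted gene Il6 in the cxC26 scr tumors had 326 to 438 reads, against 56 to 86 in the cxC26 IL6KOs1 tumors, so all 8 libraries matched their labels. Of the epithelial markers of a colon tumor, only Krt20 was abundant, with 17390 to 22185 reads, while Epcam had 0 to 14 reads, Krt19 had 0 or 1 and Cldn4 had none. In bulk tumor tissue, fewer cells of a type and less RNA per cell cannot be told apart. Values below are log2 CPM, the log2 of counts per 1e6 assigned reads, with means ± SD over 4 tumors, and log2 fold changes are cxC26 IL6KOs1 minus cxC26 scr with their standard errors (SE).

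Most S100 genes that could be tested were higher in the cxC26 IL6KOs1 tumors. Of the 10 genes, 9 had at least 1 CPM in at least 4 tumors and were tested with limma, 6 of them rose (S100a1, S100a4, S100a6, S100a8, S100a13 and S100a16), 0 fell, and 3 did not pass the test (S100a9, S100a10 and S100a11). No member was lower at an unadjusted p under 0.05 either, and limma-voom weights likewise gave 0 lower members. Over all 13262 tested genes, 39.8% passed the adjusted threshold of 0.05, with 19.1% higher and 20.7% lower. The share of tested S100 genes that rose was 66.7%. Among the 9 tested members the median log2 fold change was 0.73, against -0.003 over all tested genes. The ranges of both groups did not overlap for 7 of the 10 members, each higher in the knockout tumors. Among the 9 tested members this held for 6 (66.7%). Of all tested genes, 37.1% were separated in either direction and 17.8% in that one. The 7 were the 6 genes that rose and S100a14, whose reads were too few for the test. For S100a14 the separation rested on scaling by library size, since control tumor 3 and knockout tumor 2 both had 11 reads.

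**Figure D1:**
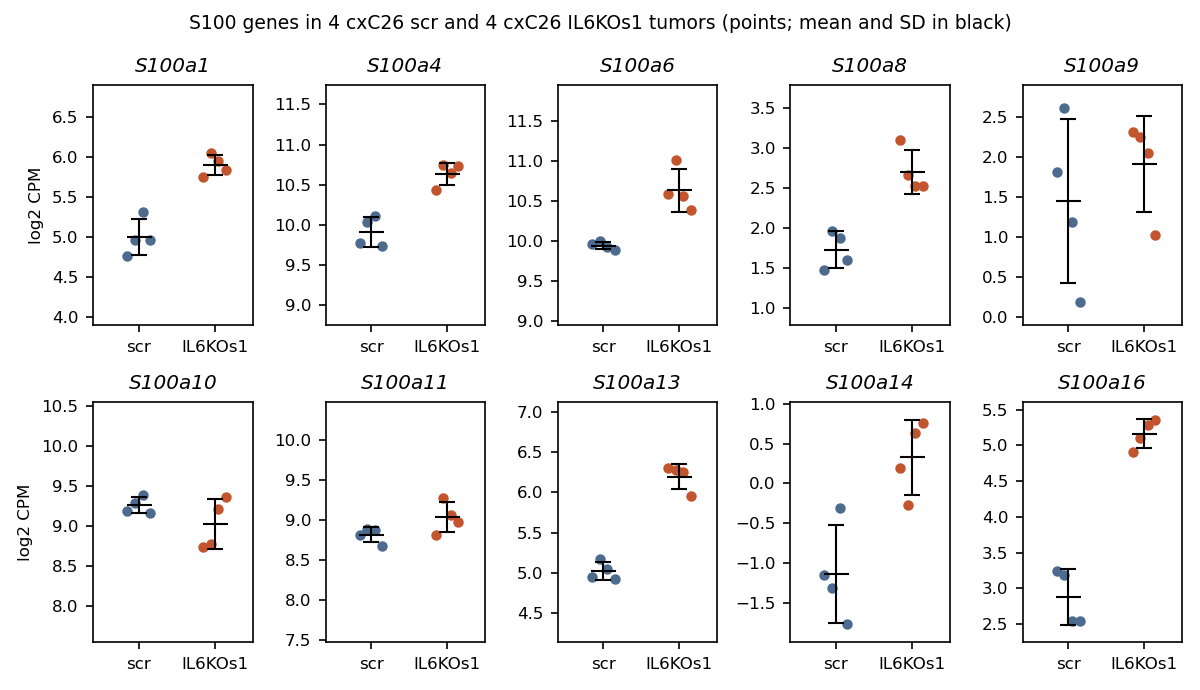
Level of each of the 10 S100 genes in log2 CPM (y axis, each panel with its own range) in the 4 cxC26 scr tumors (blue points) and the 4 cxC26 IL6KOs1 tumors (orange points), with the mean and SD in black. In 7 panels every knockout tumor lies above every control tumor, for S100a14 only by -0.27 against -0.31. In those of S100a9, S100a10 and S100a11 the groups overlap.

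S100a16, a widely expressed member of the family, showed the largest difference. Its 250 bases upstream of the RefSeq start and of a further annotated start (build GRCm38.p6, plus strand) are shown because of that difference, with the letters of an AP-1 motif (TGANTCA) in capitals.
S100a16, first start, chr3:90537004-90537253: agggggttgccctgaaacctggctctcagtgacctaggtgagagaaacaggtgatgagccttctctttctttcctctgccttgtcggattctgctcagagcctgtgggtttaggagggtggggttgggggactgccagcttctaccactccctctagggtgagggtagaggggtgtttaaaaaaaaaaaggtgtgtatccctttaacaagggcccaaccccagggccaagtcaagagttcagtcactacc
S100a16, further start, chr3:90540896-90541145: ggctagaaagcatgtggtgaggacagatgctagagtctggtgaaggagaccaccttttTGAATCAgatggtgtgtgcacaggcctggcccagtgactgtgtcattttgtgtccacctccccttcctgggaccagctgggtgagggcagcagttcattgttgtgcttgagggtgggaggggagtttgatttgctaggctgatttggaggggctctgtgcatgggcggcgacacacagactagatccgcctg
Only the window of the further start held that motif, at position -192 from the start. The gene spans chr3:90537254-90543151. Its levels in cxC26 scr tumors 1 to 4 were 3.24, 3.19, 2.54 and 2.54 log2 CPM, and those in cxC26 IL6KOs1 tumors 1 to 4 were 4.90, 5.10, 5.28 and 5.36. The lowest knockout tumor was far above the highest control tumor. The corresponding reads were 157, 147, 82 and 89 in the controls and 485, 474, 611 and 596 in the knockouts. The mean rose from 2.88 ± 0.39 to 5.16 ± 0.21, a log2 fold change of 2.28 (SE 0.187, 95% interval 1.88 to 2.69, limma adjusted p = 6.69e-06), or 4.87-fold. By the root mean square difference of centered log2 CPM over the 8 tumors, the tested genes with the most similar pattern were Crabp2 (0.14), Ccr2 (0.24) and Csf1 (0.24). They encode a retinoic acid binding protein, a monocyte chemokine receptor and the macrophage growth factor, and their log2 fold changes were 2.40, 2.10 and 2.37. The measure includes the difference between the groups, so near genes have similar fold changes by construction. Expression in the same cells was not tested. The most similar member was S100a13, at a distance of 0.63.

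S100a13, which takes part in the release of signal-less proteins such as Fgf1 from the cell, was the next largest among the tested members. In the cxC26 scr tumors it had 513, 582, 468 and 464 reads, against 1282, 1079, 1200 and 904 in the cxC26 IL6KOs1 tumors. Its levels were 4.94, 5.17, 5.04 and 4.92 log2 CPM in the controls and 6.30, 6.28, 6.25 and 5.96 in the knockouts. Knockout tumor 4 was the lowest of its group and still above every control. This was a log2 fold change of 1.18 (SE 0.102, 95% interval 0.96 to 1.41, limma adjusted p = 9.77e-06), or 2.27-fold. Its nearest genes by pattern were Ephx1 (0.07), Serpinb6a (0.09) and Tcf7l2 (0.09). They encode an epoxide hydrolase, a serpin protease inhibitor and a transcription factor of the Wnt pathway. Their log2 fold changes were 1.24, 1.07 and 1.19, again similar by construction of the measure. The cargo gene Fgf1 did not pass the test, with a log2 fold change of 0.10 (limma adjusted p = 0.727), and Il1a, which encodes another protein released without a signal peptide, had 2 to 4 reads in the controls and 3 to 13 in the knockouts.

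S100a1, known for calcium handling in heart and skeletal muscle, lies head to head with S100a13. The RefSeq gene S100a1 (chr3:90511034-90514330, minus strand) and S100a13 (chr3:90514233-90524581, plus strand) overlap by 98 bases at their starts, and since the strand setting of the counting is not given in the sources used here, reads from the overlap could not be assigned to either with certainty. S100a1 was at 4.76, 4.96, 5.31 and 4.96 log2 CPM in the cxC26 scr tumors and at 5.75, 6.04, 5.95 and 5.84 in the cxC26 IL6KOs1 tumors. The groups were separate. S100a1 rose by a log2 fold change of 0.90 (SE 0.12, 95% interval 0.63 to 1.16, limma adjusted p = 0.000192), or 1.86-fold. Transcripts of skeletal muscle were present at uneven levels, with summed CPM over 7 muscle genes of 10.2 to 172 in the controls and 27.5 to 348 in the knockouts. The highest muscle sums were in control tumor 2 and knockout tumor 4, and the part of muscle RNA in the S100a1 difference was not tested. Of those 7 genes, Myh1, a fast muscle myosin, was the only one that passed the test (log2 fold change 1.96, limma adjusted p = 0.0443). Myh1 reached 1 CPM in 2 control tumors and in all 4 knockout tumors. Its groups overlapped, with 5 to 46 reads in the controls and 25 to 164 in the knockouts.

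S100a14, an epithelial member between S100a13 and S100a16 on the chromosome (chr3:90526849-90528837), was at the edge of detection. In the cxC26 scr tumors it had 7, 6, 11 and 4 reads, against 18, 11, 24 and 24 in the cxC26 IL6KOs1 tumors. These were -1.15, -1.32, -0.31 and -1.77 log2 CPM in the controls and 0.19, -0.27, 0.64 and 0.76 in the knockouts. Only 3 tumors reached 1 CPM, so S100a14 failed the filter. An exact permutation test over the 8 tumors gave a two-sided p of 0.0286, the smallest that 4 against 4 tumors allow. That p rests on control tumor 3 and knockout tumor 2, which both had 11 reads and differed only through library size. In the fit of all 27179 genes without the filter, where 7.77% of genes were called higher, its log2 fold change was 1.47 (SE 0.48, 95% interval 0.38 to 2.56) and did not pass the threshold (limma adjusted p = 0.0738). Among 10 epithelial markers, 3 were tested and 2 rose, namely Krt18 and Cdh1, with log2 fold changes of 3.20 and 1.46. Krt20, the most abundant of the 10, did not pass (log2 fold change 0.21, limma adjusted p = 0.102).

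S100a4, also called metastasin, binds non-muscle myosin and is found in motile tumor cells, fibroblasts and macrophages. It had the highest level per length of the family. Its upstream window (plus strand) is shown because it holds the only TATA motif (TATAAA, in capitals) among the windows printed here, at position -31 from the start.
S100a4, chr3:90603520-90603769: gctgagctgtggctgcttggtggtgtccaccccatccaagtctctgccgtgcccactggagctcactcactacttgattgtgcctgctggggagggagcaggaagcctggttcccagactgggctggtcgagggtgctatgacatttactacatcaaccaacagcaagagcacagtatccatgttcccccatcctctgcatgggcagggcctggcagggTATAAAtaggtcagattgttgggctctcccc
S100a4 spans chr3:90603770-90606045. In the cxC26 scr tumors it had 13053 to 16891 reads, against 22642 to 25216 in the cxC26 IL6KOs1 tumors. Its levels were 9.77, 10.03, 10.11 and 9.73 log2 CPM in the controls and 10.44, 10.74, 10.64 and 10.73 in the knockouts, with no overlap. Its log2 fold change was 0.73 (SE 0.121, 95% interval 0.46 to 0.99, limma adjusted p = 0.00074), or 1.66-fold. In GENCODE M21, the gene model Gm42674 shares 302 bp of the S100a4 exons (51.7%) on the same strand. Gm42674 is not among the genes of the table, and the annotation used for counting is not given in the sources used here. If that annotation held Gm42674, reads may have been split, and the S100a4 level is uncertain to that extent. S100a4 is often read as a mesenchymal gene. Of 8 mesenchymal genes tested 5 fell and 1 rose, with a median log2 fold change of -0.45. The part of mesenchymal cells in the S100a4 difference was not tested. The gene that rose was Vim, the filament protein vimentin (0.65, limma adjusted p = 0.0163), and Cdh2, or N-cadherin, and the transcription factor Zeb1 fell by 0.95 and 0.83 on the log2 scale. The myosin partner Myh9 did not pass the test (log2 fold change 0.25, limma adjusted p = 0.119).

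S100a6, or calcyclin, lies beyond S100a4 and S100a5 on the chromosome (chr3:90612894-90614414). Control tumors held 16583, 16584, 13749 and 14615 reads of S100a6, and knockout tumors 24943, 28527, 23747 and 19303. Its level was tight among the cxC26 scr tumors, with a mean of 9.94 ± 0.05 log2 CPM (SD, n = 4), and spread more among the cxC26 IL6KOs1 tumors, at 10.58, 11.01, 10.56 and 10.38. All 4 knockout tumors were above the controls, with tumor 2 the highest. Its log2 fold change was 0.69 (SE 0.131, 95% interval 0.41 to 0.98, limma adjusted p = 0.00159), or 1.61-fold. Cacybp, which encodes the calcyclin-binding protein, had a log2 fold change of 0.01 (limma adjusted p = 0.921).

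Of the calprotectin genes, S100a8 rose and S100a9 did not pass the test, and the difference between them was not tested. S100a8 and S100a9 form the heterodimer that is a major cytosolic protein of neutrophils, but both were low here. S100a8 (chr3:90669071-90670034) in the cxC26 scr tumors had 46, 63, 52 and 46 reads, against 139, 87, 90 and 83 in the cxC26 IL6KOs1 tumors. In log2 CPM these were 1.48, 1.97, 1.88 and 1.60 in the controls and 3.10, 2.66, 2.52 and 2.53 in the knockouts. The groups did not overlap, and knockout tumor 1 was the highest. S100a8 rose by a log2 fold change of 0.97 (SE 0.201, 95% interval 0.53 to 1.41, limma adjusted p = 0.00282), or 1.96-fold, and by 0.84 without knockout tumor 1 (limma adjusted p = 0.00647).

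S100a9 (chr3:90692630-90695721, minus strand) varied more between tumors of 1 group than between the groups. Its upstream window, read on the minus strand, is shown for the C/EBP motif (TTGCNNAA, in capitals) at position -236.
S100a9, chr3:90695722-90695971: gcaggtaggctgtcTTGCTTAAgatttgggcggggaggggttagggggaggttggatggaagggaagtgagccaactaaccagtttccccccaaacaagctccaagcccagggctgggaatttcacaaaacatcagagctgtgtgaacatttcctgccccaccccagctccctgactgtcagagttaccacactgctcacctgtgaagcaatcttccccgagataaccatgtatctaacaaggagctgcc
In the cxC26 scr tumors S100a9 had 58, 98, 32 and 17 reads, against 80, 65, 65 and 29 in the cxC26 IL6KOs1 tumors. Its levels were 1.81, 2.61, 1.19 and 0.19 log2 CPM in the controls and 2.31, 2.24, 2.05 and 1.03 in the knockouts. The control group held both the highest and the lowest value. The log2 fold change was 0.46 (SE 0.46, 95% interval -0.55 to 1.46, limma adjusted p = 0.452), and the exact permutation test gave a two-sided p of 0.5143. The fold change was 0.04 without control tumor 4 and 0.85 without control tumor 2, so single tumors moved it more than 1.5 times. The ratio of S100a8 to S100a9 reads was 0.793, 0.643, 1.62 and 2.71 in the controls and 1.74, 1.34, 1.38 and 2.86 in the knockouts. The last tumor of each group had the highest ratio.

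Neutrophil transcripts were scarce in all 8 tumors. The defining marker Ly6g had 0 reads in every cxC26 scr tumor and 0, 2, 1 and 0 in the cxC26 IL6KOs1 tumors. Of 14 neutrophil markers 3 were tested, and the sum of the 14 was 12.4 to 18.5 CPM in the controls and 15.2 to 25.7 in the knockouts. Mmp8, a neutrophil collagenase, reached 1 CPM in all 4 control tumors and in 1 knockout tumor, so that it entered the test through the group where it is high, and fell (log2 fold change -1.34, limma adjusted p = 0.0361), while Csf3r (0.34, limma adjusted p = 0.282) and Trem1 (0.39, limma adjusted p = 0.25) did not pass. The granule genes Ngp and Camp had 1 to 2 and 0 to 3 reads in the controls and 13 to 39 and 6 to 16 in the knockouts. Other untested markers went both ways. Summed over the controls and over the knockouts, Mpo had 53 and 50 reads, Cxcr2 45 and 37, and Retnlg 30 and 17. Ltf (4 and 23), Padi4 (2 and 12), Elane (2 and 7), Prtn3 (20 and 32) and Stfa2l1 (1 and 3) had more in the knockouts.

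Monocyte and macrophage markers rose in most cases. Of 12 markers, all tested, 10 rose and 0 fell, with a median log2 fold change of 1.23. The markers F13a1 and Chil3 did not pass. The count that rose was 9 or 10 when 1 tumor was left out and 8 without a filter. Their summed level was 797 to 1060 CPM in the cxC26 scr tumors and 1670 to 2720 in the cxC26 IL6KOs1 tumors, with knockout tumor 1 the highest. Ccr2, a gene of inflammatory monocytes, had a log2 fold change of 2.10, and the abundant Lyz2 and C1qa had 1.20 and 1.02. Mrc1, the mannose receptor, was at the threshold (0.52, limma adjusted p = 0.0499). Ly6c2, with a log2 fold change of 2.93, reached 1 CPM in 1 control tumor and in all 4 knockout tumors, so that it passed the filter through the group where it is high. Knockout tumor 1 had the highest S100a8 and S100a13 of its group, and the lowest S100a1, S100a4 and S100a16. Its S100a6 lay between those of the other knockout tumors. The markers and these S100 genes were both higher in the knockout group, and the part of the macrophage content in the differences of S100a4, S100a6, S100a8, S100a13 and S100a16 was not tested. Without knockout tumor 1 the same number of members, 6, rose. Knockout tumors 2 to 4 had marker sums of 1670 to 1740 CPM, also above every control. Leaving out tumor 1 therefore did not test the part of the macrophage content.

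**Figure D2:**
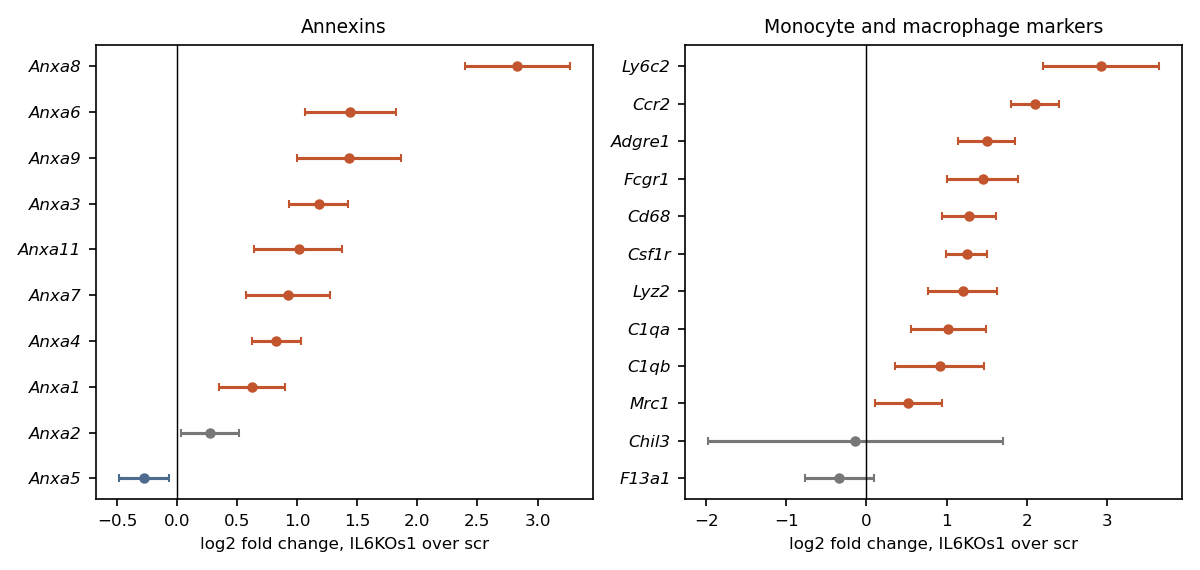
Log2 fold changes (x axis, cxC26 IL6KOs1 over cxC26 scr) with 95% intervals for tested annexins, apart from Anxa10, whose control tumors had at most 3 reads (left), and for tested monocyte and macrophage markers (right). Orange points rose, blue points fell and gray points did not pass the test. 8 of the 10 annexins plotted and 10 of the 12 markers rose.

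S100a10 and S100a11 lie close together, away from the other members, and neither changed beyond the threshold. S100a10 (chr3:93555117-93564645), the p11 light chain that binds annexin A2 and does not bind calcium, was at 9.19, 9.29, 9.39 and 9.17 log2 CPM in the cxC26 scr tumors and at 8.74, 8.78, 9.22 and 9.36 in the cxC26 IL6KOs1 tumors. Knockout tumors 1 and 2 were below all controls, and tumors 3 and 4 were within the range of the controls. The log2 fold change was -0.24 (SE 0.139, 95% interval -0.54 to 0.07, limma adjusted p = 0.196), and the exact permutation test gave a two-sided p of 0.2857. It was -0.14 without knockout tumor 1 and -0.35 without knockout tumor 4. The sum of 9 fibroblast markers was 6790 to 8310 CPM in the controls and 4340, 4860, 5970 and 6910 in knockout tumors 1 to 4. Of these markers 2 rose and 5 fell, and their part in the S100a10 values was not tested.

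S100a11 (chr3:93520496-93526288), a partner of annexin A1, was at 8.82, 8.89, 8.88 and 8.68 log2 CPM in the controls and at 8.82, 9.27, 9.06 and 8.98 in the knockouts. Knockout tumors 2, 3 and 4 lay above every control. The log2 fold change was 0.21 (SE 0.105, 95% interval -0.02 to 0.44, limma adjusted p = 0.129), and the exact permutation test gave a two-sided p of 0.0857. Without knockout tumor 2 it was 0.13, and without knockout tumor 1 it was 0.28. Its promoter window held the AP-1 motif in 2 places.

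**Figure D3:**
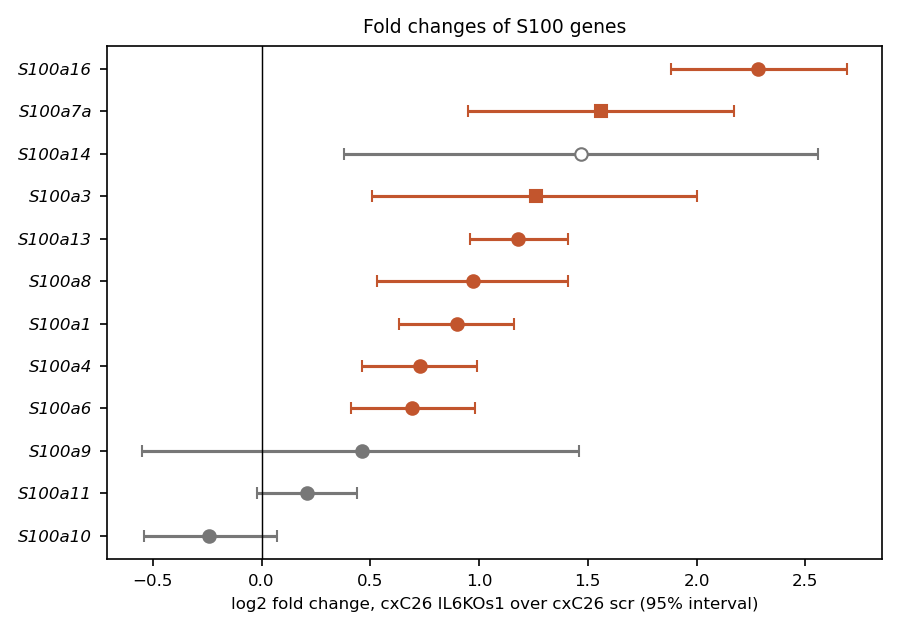
Log2 fold changes (x axis, cxC26 IL6KOs1 over cxC26 scr) with 95% intervals for S100 genes. Circles are the 10 members, squares the other S100 genes that were tested, orange passed the test, gray did not, and the open circle is S100a14 from the fit without a filter. S100a16 is highest at 2.28 and S100a10 lowest at -0.24.

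Other S100 genes in the table were also compared. S100a7a, a relative of human psoriasin, had 19, 42, 20 and 21 reads in the controls and 98, 55, 67 and 64 in the knockouts, and rose by a log2 fold change of 1.56 (SE 0.279, limma adjusted p = 0.00116). S100a3 had 23, 16, 10 and 26 reads in the controls and 48, 55, 44 and 25 in the knockouts, and rose by 1.26 (SE 0.341, limma adjusted p = 0.0125), though not in the fit without a filter (limma adjusted p = 0.0542). S100a5 had 5 to 10 reads in the controls and 13 to 24 in the knockouts, and was not tested. S100b, a marker of glial cells, had 6 to 14 and 10 to 28 reads. S100g had 1 to 3 and 3 to 5 reads, and S100a2 had 0 in the controls and 0 to 4 in the knockouts. S100a7l2 and S100z had no reads, and none of the 7 fused-type S100 genes, such as Flg, was tested.

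Of the members, 8, from S100a1 to S100a9, form a cluster from 90511034 to 90695721 on chromosome 3 (GRCm38.p6). Of its 7 tested members, 6 rose, with log2 fold changes between 0.69 and 2.28 for those 6. Neither gene of the S100a10 and S100a11 pair, which begins 3009.5 kb from the lower end of S100a1, did so. Within 1 Mb of the cluster, the 27 other tested genes all lay on 1 side, below the lower end of S100a1. Their median log2 fold change was 0.17, and 7 rose and 1 fell. Over chromosome 3 the median was 0.18, with 206 of 641 tested genes higher and 56 lower, and in the 10 Mb window of the cluster it was 0.22. After the window median was subtracted, S100a16 remained at the largest value and the values of S100a1, S100a4, S100a6 and S100a13 were 0.68, 0.51, 0.47 and 0.96. Of the other tested genes near the pair, 4 lay wholly within 1 Mb and 3 of them rose, with a median of 1.13, which became 0.28 when the gene that reaches past that limit (Snx27) was added.

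**Figure D4:**
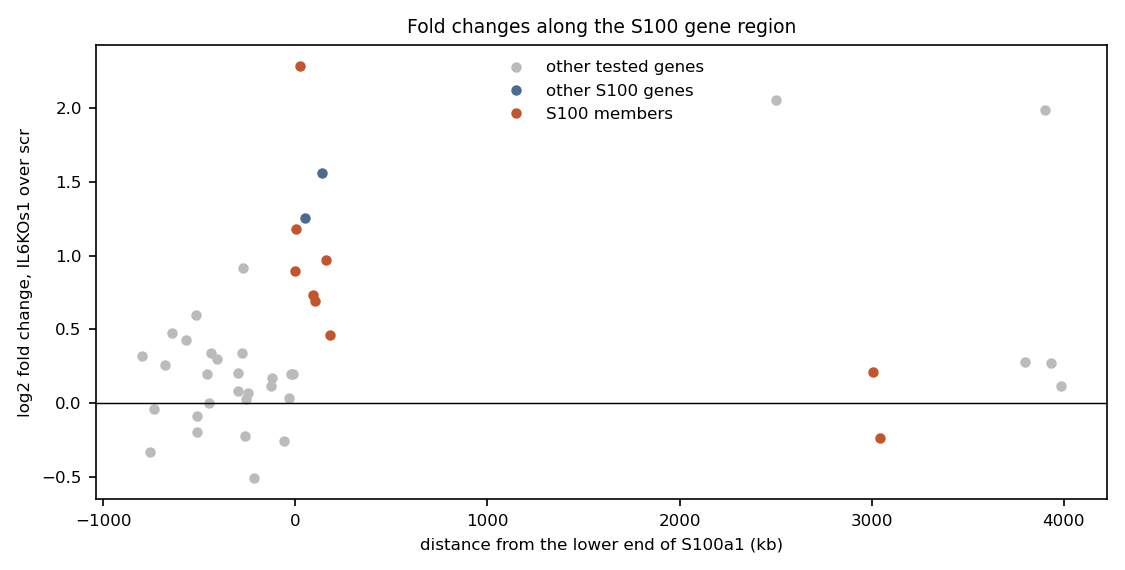
Log2 fold change (y axis, cxC26 IL6KOs1 over cxC26 scr) of tested genes against their distance in kb from the lower end of S100a1 (x axis). Orange points are members, blue points other S100 genes and gray points other tested genes. The cluster members stand above most neighbors, and S100a11 and S100a10 lie near 0, at 0.21 and -0.24.

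Levels can be compared between genes only per length. Per kilobase of annotated exon, S100a4 was highest in the cxC26 scr tumors at 10.69 log2 CPM per kb, followed by S100a11 (9.79), S100a6 (9.49) and S100a10 (8.98). S100a1 (5.53) and S100a13 (5.50) came next and overlapped in range. S100a9 (2.39), S100a8 (2.26) and S100a16 (2.18) also overlapped with their neighbors in the order, and S100a14 was lowest at -1.93. In the cxC26 IL6KOs1 tumors S100a16 stood above S100a8 and S100a9, at 4.47 against 3.23 and 2.85, without overlap with the nearer of them. The order depends on the length used. With the median length of coding transcripts in place of all exons, S100a6 (10.68) and S100a10 (10.04) were above S100a11 (9.79) in the cxC26 scr tumors, and S100a16 (3.02) was above S100a8 (2.77) and S100a9 (2.40) there already. The 10 genes together took 0.31 ± 0.0234% of all reads in the controls and 0.444 ± 0.0345% in the knockouts (SD, n = 4). S100a4, S100a6, S100a10 and S100a11 made up 95.6% to 97.5% of those reads in every tumor. The share of S100a10 among them was 19.8 ± 0.52% in the controls and 12 ± 2.79% in the knockouts, and that of S100a16 was 0.243 ± 0.0657% and 0.813 ± 0.118%.

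Partner genes of the S100 proteins included the annexins, calcium-dependent membrane binding proteins. Of 12 annexins, 11 were tested, 9 rose, 1 fell and 1 did not pass, and the median log2 fold change was 1.01. Anxa8 had 165 to 331 reads in the controls and 1011 to 2074 in the knockouts, a log2 fold change of 2.83 (SE 0.2, limma adjusted p = 2.49e-06). Anxa10 had 1 to 3 reads in the controls and 17 to 103 in the knockouts, and passed the filter only through the knockout tumors. Anxa1, the partner of S100a11, rose by 0.62 (limma adjusted p = 0.00242). Anxa2, the partner of S100a10, did not pass (0.27, limma adjusted p = 0.0663). Anxa5, which binds phosphatidylserine, fell by 0.28 on the log2 scale (limma adjusted p = 0.0367), but no annexin was called lower without a filter or in 5 of the 8 fits that left out 1 tumor.

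Genes whose products the complex of S100a10 and annexin A2 binds or carries went both ways. Of 13 listed, 6 were tested, 2 rose and 2 fell, with a median of -0.01. Ahnak, a giant scaffold protein, rose by 1.01 (limma adjusted p = 0.000151), with 22496 to 25842 reads in the controls and 39588 to 56289 in the knockouts. Kcnk3, the TASK-1 potassium channel, fell by 3.65 on the log2 scale (limma adjusted p = 1.74e-06), from 705 to 1338 reads to 52 to 106. Plat, tissue plasminogen activator, fell by 0.71 (limma adjusted p = 0.0326). Of 10 other tested targets of S100 proteins, 0 rose and 1 fell, with a median of 0.06. That gene was Tpm1, a tropomyosin (log2 fold change -0.37, limma adjusted p = 0.023).

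Receptors proposed for S100 proteins outside the cell were all tested. Of the 8, 2 rose, 1 fell and 5 did not pass, with a median log2 fold change of 0.14. Alcam, an adhesion molecule, rose from 57 to 88 reads in the controls to 191 to 266 in the knockouts (log2 fold change 1.66, limma adjusted p = 4.35e-05). Bsg, also called basigin, rose by 0.27 (limma adjusted p = 0.0472), and Emb fell by 0.50 (limma adjusted p = 0.0222), but both lost the call in some fits. Ager, with 34 to 49 reads in the controls and 19 to 42 in the knockouts, and Tlr4 did not pass (limma adjusted p = 0.208 and 0.162).

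Among 7 genes that encode regulators of myeloid cells or of the IL-6 pathway, Spi1, the myeloid factor PU.1, rose by 1.48 (limma adjusted p = 9.17e-05). Stat3 and its feedback inhibitor Socs3 fell by 0.52 and 0.86 on the log2 scale (limma adjusted p = 0.00236 and 0.00127), and Cebpb and Cebpd did not pass. A STAT motif (TTCNNNGAA) was found in the promoter window of none of the 8 members whose windows were available from RefSeq, and 7.02% of 32851 promoter windows held it on either strand. The S100a13 window lay mostly within the gene span given above, and 192 of its 250 bases were annotated exon. The shares were 9.56% for the C/EBP motif, 6.75% for the AP-1 motif and 12.4% for the TATA motif, which S100a4 and S100a8 held. A match is only a description of letters.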

How the data were processed

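Tumor RNA was prepared with the NEBNext Ultra RNA kit and sequenced with paired-end reads of 150 bp. Trimming (Trimmomatic), alignment (Hisat2, build mm10), counting per gene (featureCounts) and normalization (limma-voom) were done by the authors. bcl2fastq 2.17 is named in the submitters' processing notes. The annotation, strand setting and other versions are not given in the sources used here. The deposited values are log2 CPM, made by the authors as log2 of reads plus 0.5 over the effective library size plus 1. Whole reads were recovered from these values (tolerance 0.01) and gave the depths.

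Here, limma 3.58.1 (R 4.3.3) with a mean-variance trend was fitted to 13262 genes that reached 1 CPM in 4 or more of the 8 tumors, with Benjamini-Hochberg adjustment over all of them at a threshold of 0.05. Tests of 1 gene were exact permutation tests, two-sided. The fit was tested on simulated data. Alternatives were no filter, a stricter filter, other scalings, a replicate block, no trend, voom weights, a pseudocount of 1 CPM, leaving out each tumor and subtraction of the local median. The members and lists were chosen with earlier results of these data known. Genes named were the members, other S100 genes with reads and the nearest patterns. From each list they were the defining or most abundant genes, with the largest changes past the threshold. Snx27 and the untested neutrophil markers other than Ly6g were chosen after their values were seen. Reads of S100a11 may be shared with its pseudogene. Sequences were taken from RefSeq (GRCm38.p6), which matched 8 members, and windows with annotated exon bases were not printed.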

Additional observations from a re-analysis of the deposited data

Results flagged for a closer look

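Among 30 groups of 4 tumors checked for a tumor far from the others, 1 stood apart, where about 1 in 20 groups (1.5 of 30) would by chance. This was S100a13 in cxC26 IL6KOs1 tumor 4, whose level of 5.96 log2 CPM lay below those of knockout tumors 1 to 3, from 6.25 to 6.30.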

How the results depend on the processing

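The count of S100 members that rose stayed at 6 and that of members that fell at 0 in the fits without a filter, with quantile normalization, re-centring, no variance trend, voom weights or a pseudocount of 1 CPM, and without each tumor. With only genes averaging 3 log2 CPM or more it was 5, since that filter removed S100a8 and S100a9. Subtraction of the median of the 10 Mb window, a value with no test, gave 0.68 for S100a1, 0.51 for S100a4, 0.47 for S100a6, 0.96 for S100a13 and -0.01 for S100a11. Without a filter, the annexins that fell went from 1 to 0, the other S100 genes that rose from 2 to 1, the receptors that rose from 2 to 1 and those that fell from 1 to 0; more genes were tested there, and the cause was not tested. Without 1 tumor each, annexins that fell ranged from 0 to 1, receptors that rose from 1 to 2 and receptors that fell from 0 to 1.

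The groups share replicate numbers, but the correlations of deviations between tumors with the same number were -0.059, 0.057, 0.017 and -0.059, so the tumors share only a number. With the replicate block 2477 genes were higher and 2688 lower, and 6 members rose and 0 fell. Reads were few for S100a14 (4 to 24), S100a9 (17 to 98) and S100a8 (46 to 139). S100a9 also spread more between the control tumors, with an SD of 1.02 log2 CPM against 0.23 for S100a8.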
